A study of Mus musculus with 10 samples.

Results

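The genes described are 10 markers of the cells that line blood and lymphatic vessels, Pecam1, Cdh5, Tie1, Tek, Flt1, Kdr, Plvap, Lyve1, Prox1 and Flt4. They were taken by symbol from a table of 42989 genes, all 10 were found, and all 10 passed the filter on low values described below. Sequencing covered total RNA, after removal of ribosomal RNA, in distal ileum of 10 male wild-type mice of the strain labelled DIO C57BL/6J, where DIO stands for obesity induced by diet. In 5 mice, gavage for 4 weeks delivered the taurine-conjugated bile acid TDCA (taurodeoxycholic acid) at 10 mg per kg body weight. In the other 5 mice, gavage over the same 4 weeks delivered an equal volume of water. Both groups were 10 weeks old at the start and carry the DIO label, so no lean group enters the comparison. Replicates are called TDCA 1 to TDCA 5 and water 1 to water 5.

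Endothelial cells form the inner lining of every vessel. Blood capillaries of the intestinal villus lie just under the epithelium, have pores closed by thin diaphragms, and carry absorbed sugars and amino acids away. The lacteal, the lymphatic vessel in the core of the villus, carries chylomicrons, the lipoproteins that hold absorbed fat. VEGF ligands acting on the receptors FLT1, KDR and FLT4, and angiopoietins acting on TEK with its relative TIE1, control the growth and stability of these vessels.

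The libraries held 27349003 to 44342245 reads on genes. Values are normalized counts, which the authors obtained by dividing the reads by 1 size factor per library. The 10 genes had 93 reads or more in every library, so counting error alone was 10.4% at the lowest value and less elsewhere. Genes with at least 10 normalized counts in at least 5 libraries, 17507 in number, were compared with limma on log2(normalized count + 1), and an adjusted p under 0.05 was required for a call. Limma called 0 of these genes, with 1919 at an unadjusted p under 0.05. The edgeR quasi-likelihood test and limma-voom on the recovered whole reads called 0 genes and DESeq2 called 25. Where litters, cages or gavage days were shared is not in the labels used, so p-values measure the spread between these mice.

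No vessel gene passed the test, and most had a higher mean in the TDCA ilea. Of the 10 genes, 8 had a higher mean in TDCA mice and 2, Lyve1 and Prox1, did not. Positive fold changes made up 47.9% of all 17507 genes. The median log2 fold change was 0.27 over the 10 genes and −0.01 over all genes tested. Limma called 0 of the 10 genes (0% of all genes tested were called), and the ranges of the groups were apart for 0 of the 10 (1.4% of all genes tested). At an unadjusted p under 0.05 there were 3 of the 10, Tie1, Tek and Flt1, all higher in TDCA mice, against 5.95% of all genes in that direction. That number rested on single libraries. It was 1 of 10, Tie1, without any 1 of TDCA 1, TDCA 2, TDCA 3, water 1 or water 3, 2 of 10 without TDCA 5, water 4 or water 5, and 6 of 10 without TDCA 4. EdgeR, limma-voom and DESeq2 also called 0 of the 10. In bulk tissue, fewer cells of a type and less RNA per cell cannot be told apart.

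**Figure D1:**
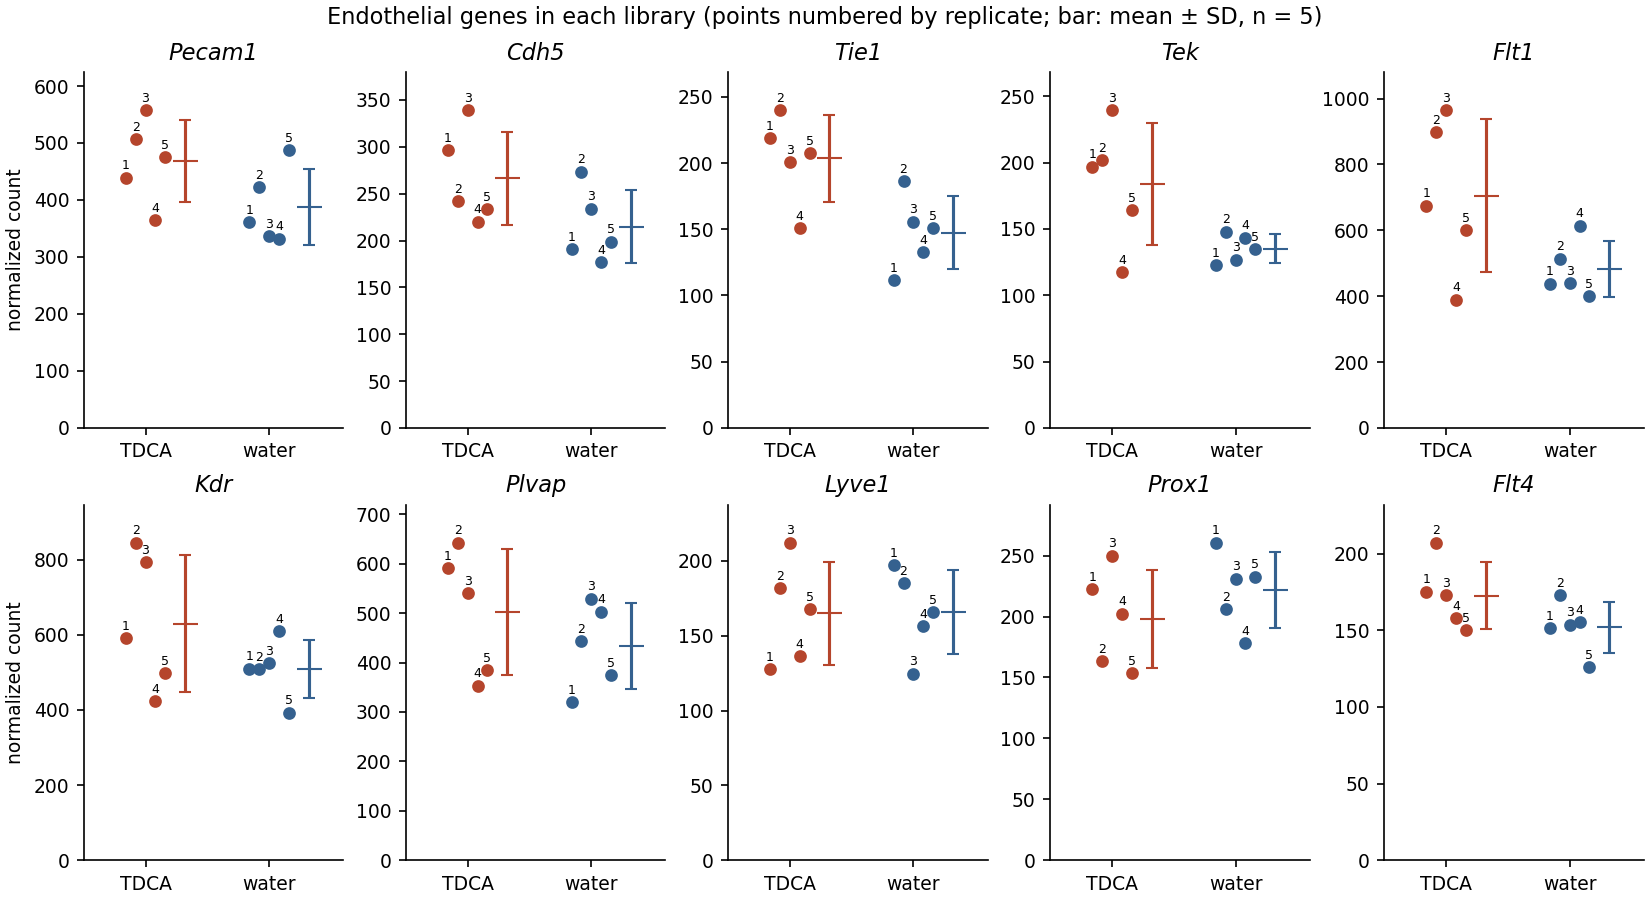
Normalized counts of the 10 endothelial genes (y axes, each from 0) in the 5 TDCA (red) and 5 water (blue) libraries, with points numbered by replicate and the mean ± SD beside them. The ranges of the groups overlap for every one of the 10 genes, and TDCA 4 is the lowest TDCA library for Tie1, Tek, Flt1 and Kdr.

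Levels of different genes were compared per kilobase of merged exons in the GENCODE M21 annotation. Plvap, which encodes the protein of the capillary pore diaphragms, was the most abundant at 236 ± 55.0 normalized counts per kb over the 10 libraries (SD). It exceeded the next gene, Pecam1 at 104 ± 18.9 per kb, in 10 of 10 libraries. Kdr followed at 96.2 ± 24.9 per kb and was below Pecam1 in 7 of 10 libraries, so that order was not kept throughout. Cdh5 at 60.2 ± 12.6, Lyve1 at 57.2 ± 10.2 and Flt1 at 54.1 ± 18.5 per kb lay within their spread of each other. Tie1 stood at 38.6 ± 9.06 and Tek at 33.9 ± 8.63 per kb. Flt4 at 25.9 ± 3.43 and Prox1 at 25.0 ± 4.30 per kb were the lowest and could not be ordered, Flt4 being above Prox1 in 6 of 10 libraries. With the longest coding transcript in place of merged exons, Flt1 moved from the sixth place to the fourth and Flt4 fell behind Prox1, while Plvap, Pecam1 and Kdr kept their places.

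**Figure D2:**
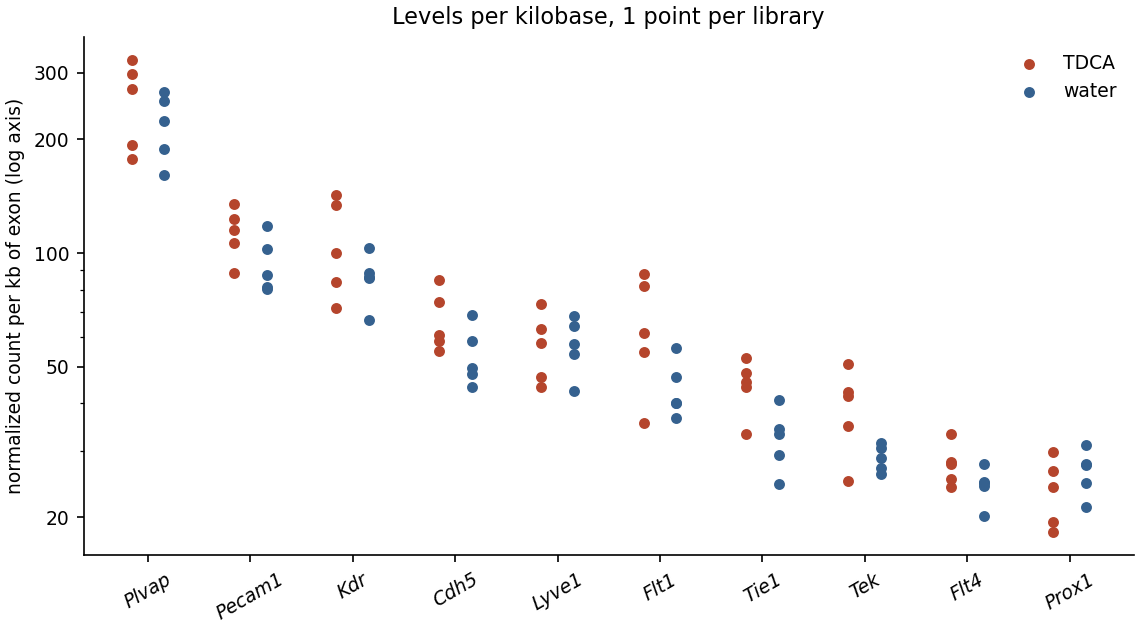
Normalized counts per kilobase of merged exon (y axis, log scale) for the 10 genes in order of their mean, with 1 point per library, TDCA in red at the left of each position and water in blue at the right. Plvap stands above all others and Flt4 and Prox1 share the lowest place.

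Pecam1 and Cdh5 encode adhesion proteins of the contacts between endothelial cells, PECAM1 being also carried by platelets and leukocytes, and VE-cadherin (Cdh5) being the cadherin of the endothelial adherens junction. Pecam1 (ENSMUSG00000020717, chromosome 11) had 439, 507, 557, 365 and 475 normalized counts in TDCA 1 to 5, against 362, 423, 336, 332 and 487 in water 1 to 5. Every TDCA library was above the water median of 362, yet water 5 exceeded 3 of them, so the groups overlapped. The mean was 469 ± 72.4 in TDCA mice and 388 ± 66.1 in water mice (SD, n = 5 each), a log2 fold change of 0.27 (SE 0.14, adjusted p = 0.495 in limma). Cdh5 (ENSMUSG00000031871, chromosome 8) had 297, 242, 339, 220 and 233 normalized counts in TDCA 1 to 5, against 191, 274, 234, 177 and 199 in water 1 to 5. TDCA 1 and TDCA 3 were above all water libraries, and water 2 was above the other TDCA libraries. Its log2 fold change was 0.31 (SE 0.16, adjusted p = 0.494 in limma). The 95% intervals of these log2 fold changes, −0.04 to 0.58 for Pecam1 and −0.04 to 0.65 for Cdh5, include 0.

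The angiopoietin receptor genes Tie1 and Tek had 4 of 5 TDCA libraries above all water libraries, without passing the test. Tie1 (ENSMUSG00000033191, chromosome 4) encodes a receptor kinase that modulates signalling by TEK and has no angiopoietin ligand of its own. It had 219, 240, 201, 151 and 208 normalized counts in TDCA 1 to 5, against 112, 186, 156, 133 and 151 in water 1 to 5. In TDCA mice 4 of 5 libraries were above every water library, and TDCA 4 alone lay inside the water range. The mean was 204 ± 33.0 in TDCA mice and 147 ± 27.7 in water mice (SD, n = 5 each), which is 1.38-fold (95% interval 1.07 to 1.78, adjusted p = 0.448 in limma). Single-gene exact permutation of the labels gave a two-sided p = 0.0317, not adjusted for the 10 genes. Tek (ENSMUSG00000006386, chromosome 4), the receptor of the angiopoietins, had 197, 202, 239, 117 and 164 normalized counts in TDCA 1 to 5, against 123, 148, 127, 143 and 135 in water 1 to 5. Again 4 TDCA libraries were above all water libraries, while TDCA 4 held the lowest value of all 10. The spread was wider among TDCA mice, 184 ± 45.8, than among water mice, 135 ± 10.8 (SD, n = 5 each). The log2 fold change of Tek was 0.41 (SE 0.18, adjusted p = 0.450 in limma, exact permutation p = 0.0714).

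Among the TDCA libraries, the VEGF receptor genes Flt1 and Kdr were both highest in TDCA 2 and TDCA 3 and lowest in TDCA 4. FLT1 binds VEGFA tightly but signals weakly and is also made as a soluble form, and KDR carries most of the growth signal of VEGFA in blood endothelium. Flt1 (ENSMUSG00000029648, chromosome 5) had 675, 898, 964, 389 and 600 normalized counts in TDCA 1 to 5, against 438, 514, 439, 614 and 401 in water 1 to 5. TDCA 1, 2 and 3 were above every water library and TDCA 4 was below all of them. The mean was 705 ± 233 in TDCA mice and 481 ± 84.8 in water mice (SD, n = 5 each), a 1.41-fold difference (95% interval 1.01 to 1.97, adjusted p = 0.452 in limma, exact permutation p = 0.111). Kdr (ENSMUSG00000062960, chromosome 5) had 592, 846, 793, 423 and 498 normalized counts in TDCA 1 to 5, against 511, 508, 525, 609 and 393 in water 1 to 5. TDCA 2 and TDCA 3 alone were above the highest water library. Its log2 fold change was 0.27 (SE 0.19, adjusted p = 0.599 in limma), and 0.15 without TDCA 2 or 0.18 without TDCA 3. The level of Flt1 relative to Kdr, as a log2 ratio of normalized counts, averaged 0.14 ± 0.17 in TDCA mice and −0.08 ± 0.14 in water mice (SD, n = 5 each).

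Tek, Flt1 and Kdr kept the steadiest ratios to each other among the 10 genes, and Tie1 with Tek forms a receptor family. For that reason the 250 bases before the start of each of these 4 genes are shown, from RefSeq on build GRCm38.p6, read 5′ to 3′ on the gene's strand, with each GGAA or its reverse complement TTCC in capitals. GGAA is the core bound by ETS factors such as ERG and FLI1, which are known to drive many endothelial genes. The stretches are chr4:118489850-118490099 on the minus strand, chr4:94739039-94739288 on the plus strand, chr5:147726012-147726261 on the minus strand and chr5:75978456-75978705 on the minus strand.
Tie1 promoter: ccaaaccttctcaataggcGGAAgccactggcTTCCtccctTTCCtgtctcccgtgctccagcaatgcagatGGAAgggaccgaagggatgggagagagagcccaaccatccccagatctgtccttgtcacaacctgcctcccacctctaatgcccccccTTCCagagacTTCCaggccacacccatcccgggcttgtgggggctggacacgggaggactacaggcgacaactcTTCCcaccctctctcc
Tek promoter: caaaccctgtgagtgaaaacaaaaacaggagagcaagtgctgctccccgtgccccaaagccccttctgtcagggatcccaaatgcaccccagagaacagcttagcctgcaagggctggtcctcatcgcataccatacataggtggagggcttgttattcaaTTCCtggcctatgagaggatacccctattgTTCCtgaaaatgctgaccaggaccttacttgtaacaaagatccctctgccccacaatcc
Flt1 promoter: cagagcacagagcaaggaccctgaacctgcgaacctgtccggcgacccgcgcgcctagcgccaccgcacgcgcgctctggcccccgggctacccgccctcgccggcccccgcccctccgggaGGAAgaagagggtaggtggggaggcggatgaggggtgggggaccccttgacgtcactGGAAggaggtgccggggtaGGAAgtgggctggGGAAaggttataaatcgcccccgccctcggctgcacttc
Kdr promoter: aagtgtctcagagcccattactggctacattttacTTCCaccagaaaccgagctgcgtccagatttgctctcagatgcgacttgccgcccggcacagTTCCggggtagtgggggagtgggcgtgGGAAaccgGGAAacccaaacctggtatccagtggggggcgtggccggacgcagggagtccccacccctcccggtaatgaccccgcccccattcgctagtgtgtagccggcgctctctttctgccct
Counted on both strands, the Tie1 stretch holds 7 matches, Flt1 and Kdr 4 each and Tek 2. Of the 32851 promoter entries in the table, 93.4% hold at least 1 match, 76.8% at least 2, 33.4% at least 4 and 3.82% at least 7, so the matches in Tek are common and those in Tie1 are many for a stretch of this length. The run TATAAA, known from core promoters and searched on both strands, was found in Flt1 and in none of Tie1, Tek and Kdr, against 12.4% of all entries. Erg averaged 131 ± 27.1 normalized counts in TDCA mice and 90.3 ± 11.3 in water mice, and Fli1 202 ± 45.3 in TDCA mice and 168 ± 58.9 in water mice (SD, n = 5 each). Neither passed in limma (adjusted p = 0.448 for Erg and 0.634 for Fli1), and both were named after their values were seen. Whether ERG, FLI1 or the marked matches bear on the levels or ratios of these genes was not tested. The promoter table was matched for 6 of the 10 genes, the others being Flt4 and Prox1, and not for Pecam1, Cdh5, Plvap and Lyve1. The Flt4 stretch held 2 GGAA matches and 0 of TATAAA. Of the Prox1 entries, 1 held 5 GGAA matches and 0 of TATAAA, and another held 2 and 1. The matches were thus not particular to the 4 genes shown.

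Plvap (ENSMUSG00000034845, chromosome 8) had 591, 643, 541, 353 and 384 normalized counts in TDCA 1 to 5, against 320, 443, 530, 503 and 374 in water 1 to 5. TDCA 1, 2 and 3 were above all water libraries and TDCA 4 and 5 were near the bottom of the water range. The mean was 502 ± 128 in TDCA mice and 434 ± 87.6 in water mice (SD, n = 5 each). Its log2 fold change was 0.20 (SE 0.19, adjusted p = 0.714 in limma), with a 95% interval of the fold from 0.86 to 1.53. It was 0.092 without water 1, 0.097 without TDCA 2, 0.13 without TDCA 1 and 0.31 without TDCA 4.

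The lymphatic genes did not share a direction. Lyve1 encodes a hyaluronan receptor of lymphatic endothelium that some tissue macrophages carry too. Lyve1 (ENSMUSG00000030787, chromosome 7) had 128, 182, 212, 136 and 168 normalized counts in TDCA 1 to 5, against 197, 185, 125, 157 and 166 in water 1 to 5. The groups covered nearly the same range, with means of 165 ± 34.4 in TDCA mice and 166 ± 27.9 in water mice (SD, n = 5 each). The fold was 0.99 with a 95% interval of 0.76 to 1.29 (adjusted p = 0.982 in limma). With 5 mice per group, folds inside that interval were not excluded, and the interval is no limit of detection. Prox1 (ENSMUSG00000010175, chromosome 1) encodes the transcription factor that sets lymphatic identity and is also made in enteroendocrine cells. It had 222, 163, 250, 202 and 153 normalized counts in TDCA 1 to 5, against 261, 206, 231, 178 and 233 in water 1 to 5. TDCA 2 and TDCA 5 were below all water libraries, and no TDCA library was above the highest water library. The log2 fold change was −0.17 (SE 0.16, adjusted p = 0.698 in limma), and the 95% interval of the fold ran from 0.70 to 1.13. It was −0.087 on the log2 scale without TDCA 5, −0.11 without TDCA 2 or without water 1, and −0.26 without TDCA 3. Flt4 (ENSMUSG00000020357, chromosome 11), the receptor of VEGFC and VEGFD, is the growth receptor of lymphatic vessels. It had 175, 207, 173, 158 and 150 normalized counts in TDCA 1 to 5, against 151, 173, 154, 155 and 126 in water 1 to 5. TDCA 1, 2 and 3 were above every water library, TDCA 3 only just (172.9 against 172.7 in water 2), and TDCA 5 lay below 4 water libraries, so the groups overlapped. The log2 fold change of Flt4 was 0.18 (SE 0.14, adjusted p = 0.620 in limma), and 0.11 without TDCA 2 or 0.12 without water 5. Relative to Pecam1, Lyve1 stood at a log2 ratio of −1.52 ± 0.16 in TDCA mice and −1.23 ± 0.27 in water mice, and Prox1 at −1.25 ± 0.36 in TDCA mice and −0.80 ± 0.28 in water mice (SD, n = 5 each). An antisense gene, Prox1os, shares 266 exon bases with Prox1 and averaged 0.69 normalized counts. No source used here gives whether reads were counted by strand.

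**Figure D3:**
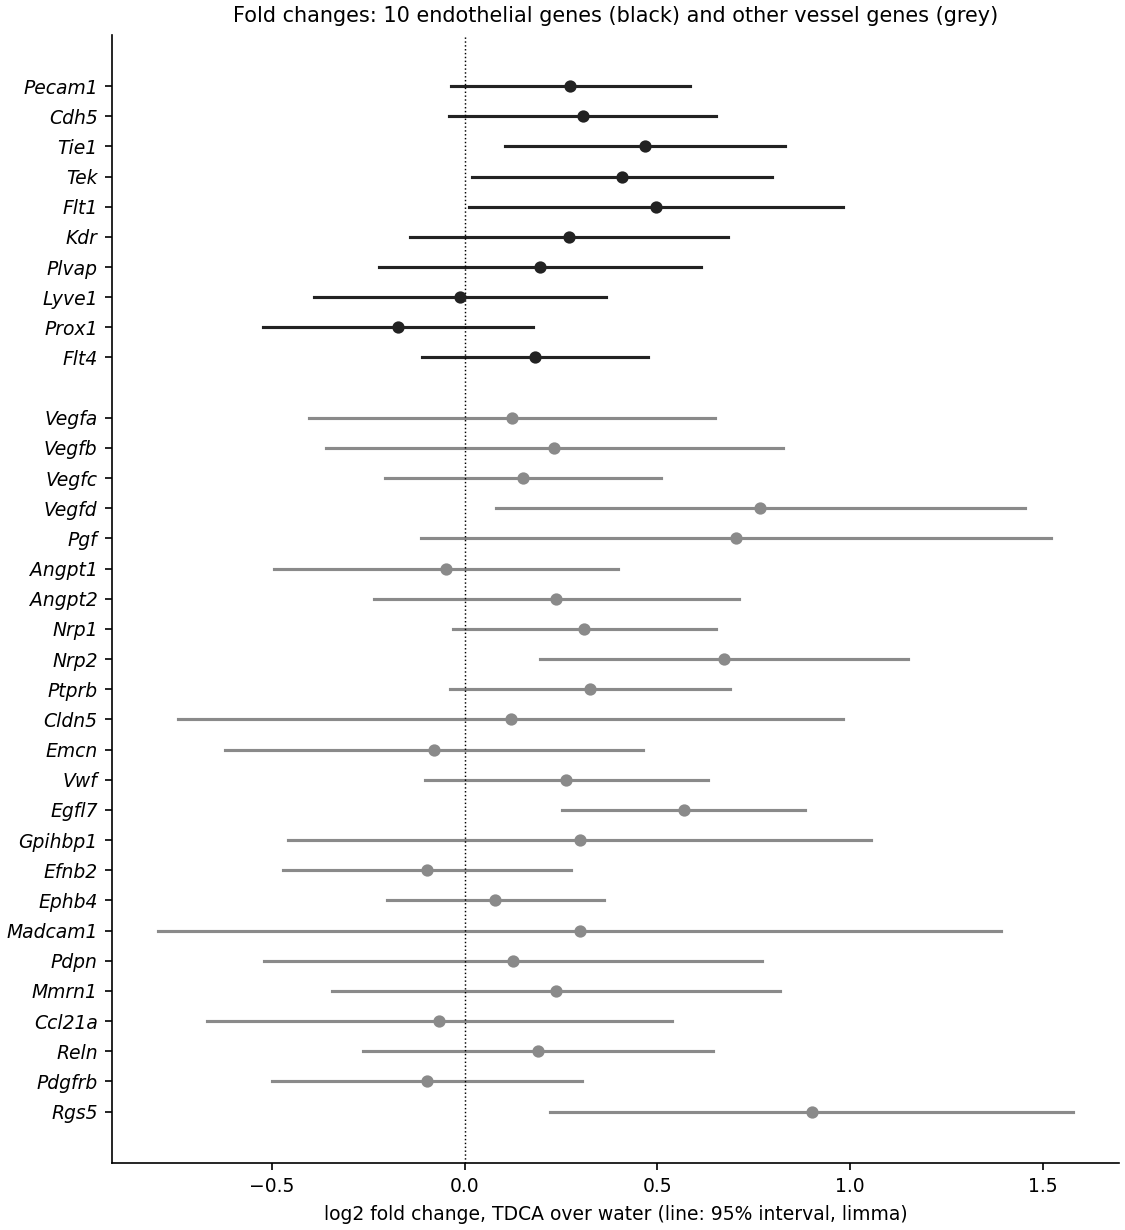
Log2 fold change of TDCA over water (x axis) with its 95% interval in limma for the 10 endothelial genes (black) and for other vessel genes (grey). The intervals of Tie1, Tek and Flt1 lie above 0 before adjustment, and those of the other 7 endothelial genes include 0.

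TDCA mice differed widely among themselves. TDCA 3 held the highest value of 5 of the 10 genes and TDCA 2 of 4. TDCA 3 was above the gene's own median over the 10 libraries for 10 of the 10 genes, TDCA 1 and TDCA 2 for 9 each, TDCA 5 for 5 and TDCA 4 for 1. In water libraries the numbers were 2, 5, 4, 3 and 2 in water 1 to 5. The mean centred log2 level of the 10 genes was 0.17, 0.31, 0.41, −0.25 and −0.03 in TDCA 1 to 5, against −0.20, 0.02, −0.13, −0.12 and −0.19 in water 1 to 5. Without TDCA 4 the median log2 fold change over the 10 genes was 0.36, and without TDCA 3 it was 0.19, with 0 genes called in either case. Over the 7 genes other than Lyve1, Prox1 and Flt4 the mean level was 0.17 ± 0.32 in TDCA mice and −0.17 ± 0.13 in water mice (SD, n = 5 each). Over Lyve1, Prox1 and Flt4 it was −0.00068 ± 0.16 in TDCA mice and 0.00068 ± 0.12 in water mice. In that mean the log2 fold changes of Flt4 (0.18) and Prox1 (−0.17) offset each other. Equal means of opposite sign in the groups follow from the centring.

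**Figure D4:**
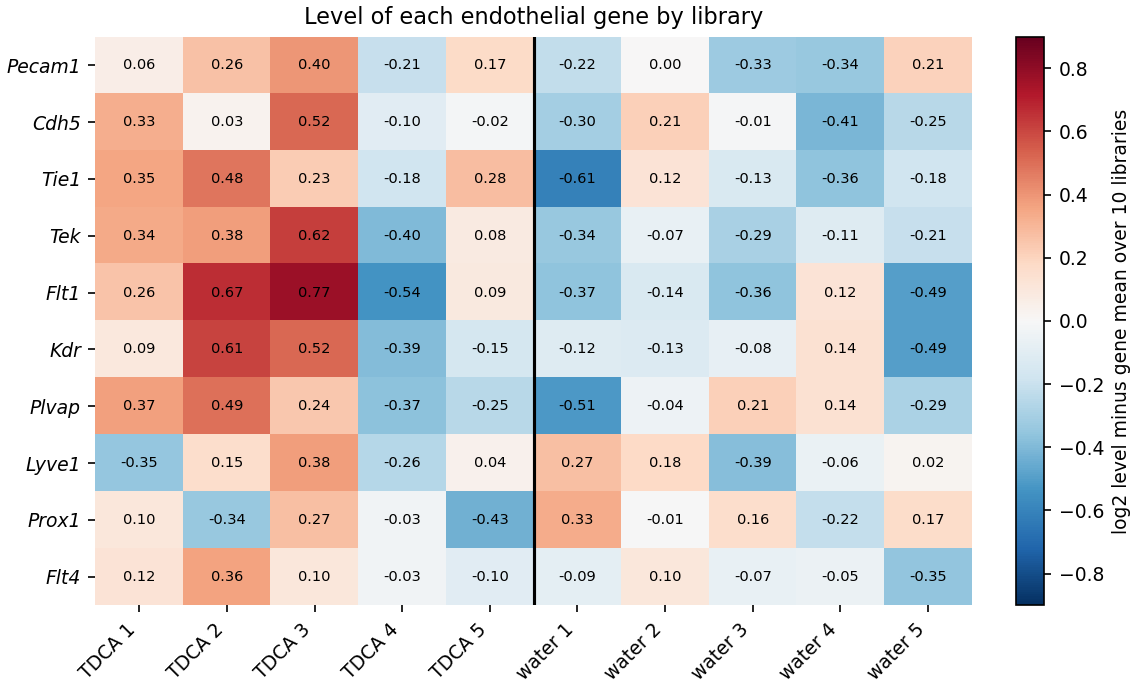
Log2 level of each of the 10 genes (rows) in each library (columns, TDCA left of the line and water right of it), minus the gene's mean over the 10 libraries, with the value printed in each cell. TDCA 2 and TDCA 3 are high for Flt1 and Kdr at 0.52 to 0.77, while TDCA 4 is at −0.54 and −0.39.

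How closely 2 genes kept to a fixed ratio was measured as the SD of their log2 ratio over the 10 libraries, for all 45 combinations. The tightest was Tek with Flt1 (0.18), followed by Flt1 with Kdr (0.19) and Tek with Kdr (0.22). The loosest was Flt1 with Prox1 (0.59). The median was 0.33 over all combinations, 0.46 over those with Prox1 and 0.27 over those without Prox1 or Lyve1.

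In the authors' deposited table, made with DESeq2, the 10 genes had the same signs as in limma, and 0 of them had an adjusted p under 0.05 (0.181% of 13800 genes with an adjusted p did). In that table the log2 fold change of Tie1 was 0.46 (adjusted p = 0.299), of Tek 0.45 (adjusted p = 0.353) and of Flt1 0.55 (adjusted p = 0.342). For Prox1 the authors' deposited table gives −0.16 (adjusted p = 0.767). The libraries are the same, so this is no further support.

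Beyond the 10 genes, 71 other vessel genes were grouped by role in 8 lists, and 65 of them passed the filter. Of these, 55 had a positive and 10 a negative log2 fold change, with a median of 0.26 against −0.01 over all genes tested. Limma called 0 of the 65. At an unadjusted p under 0.05 there were 12 higher and 0 lower, where 5.95% and 5.01% of all genes were. Of these 12, 4 are in the mural list, whose genes smooth muscle also makes, and 7 of 10 smooth muscle genes were higher at the same threshold. Every TDCA library lay above every water library for 1 of the 65, Egfl7, against 0.577% of all genes tested.

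Pan-endothelial genes had 18 of 19 members higher in TDCA mice (median log2 fold change 0.35, 0 called). Egfl7, a matrix protein gene of endothelial cells, had 103, 112, 102, 110 and 102 normalized counts in TDCA 1 to 5, against 68.5, 77.4, 80.6, 74.1 and 57.3 in water 1 to 5. The lowest TDCA value exceeded the highest water value, TDCA 4 included. The mean was 106 ± 4.75 in TDCA mice and 71.6 ± 9.14 in water mice (SD, n = 5 each), 1.48-fold (95% interval 1.19 to 1.84, adjusted p = 0.448 in limma). In TDCA mice the SD was 4.49% of the mean at 110 to 128 reads per library, narrower than counting error alone would give. The single-gene exact permutation p was 0.00794, the smallest 5 against 5 can give, and not adjusted. The log2 fold change was 0.12 (SE 0.40) for Cldn5, the claudin of endothelial tight junctions, −0.08 (SE 0.25) for Emcn, a surface mucin of capillaries and veins, and 0.26 (SE 0.17) for Vwf, the clotting factor carrier. Capillary genes had 6 of 7 members higher (median 0.30), and Gpihbp1, which anchors lipoprotein lipase on capillaries, had a log2 fold change of 0.30 (SE 0.35). Arterial genes were split, 5 higher and 3 lower (median 0.07), with Efnb2, the arterial ephrin, at −0.10 (SE 0.17). Efnb2 averaged 474 normalized counts per kb over the 10 libraries, above Plvap at 236. Which cells of the ileum made it was not tested. Of the 8 venous and venular genes, 5 were tested, 4 of them higher (median 0.26). Ephb4, the venous receptor of that ephrin, stood at 0.08 (SE 0.13) on the log2 scale and Madcam1, the lymphocyte homing ligand of gut venules, at 0.30 (SE 0.50). Ackr1, a chemokine scavenger of venules, was under the filter at 7.10 to 14.6 normalized counts in TDCA mice and 3.60 to 11.3 in water mice.

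Lymphatic genes outside the 10 had 5 of 6 tested members higher (median log2 fold change 0.21, 0 called). Nrp2, a co-receptor of VEGFC that smooth muscle and other cells also make, was highest among them at 2374 ± 534 normalized counts in TDCA mice and 1521 ± 469 in water mice (SD, n = 5 each, 1.59-fold, adjusted p = 0.448 in limma). Log2 fold changes were 0.13 (SE 0.30) for Pdpn, the podoplanin gene, 0.24 (SE 0.27) for Mmrn1, 0.19 (SE 0.21) for Reln and −0.07 (SE 0.28) for Ccl21a, a chemokine of lymphatic vessels and lymphoid stroma.

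The list of vessel growth ligands had 7 of 8 members higher (median log2 fold change 0.24, 0 called). It includes Adm, which is not a ligand of the VEGF or angiopoietin receptors, at 0.39 (SE 0.64). Vegfa, the ligand of FLT1 and KDR, averaged 1585 ± 529 normalized counts in TDCA mice and 1427 ± 361 in water mice (SD, n = 5 each). Its log2 fold change was 0.12 (SE 0.24, adjusted p = 0.867 in limma). The FLT1 ligands Vegfb and Pgf had log2 fold changes of 0.23 (SE 0.27) and 0.70 (SE 0.38). For the FLT4 ligands, Vegfc had 0.15 (SE 0.16) and Vegfd 0.77 (SE 0.31, adjusted p = 0.448 in limma). Vegfd had 319, 366, 292, 227 and 501 normalized counts in TDCA 1 to 5, against 137, 336, 114, 311 and 165 in water 1 to 5, with its lowest values in water 3 and water 1, the libraries lowest in smooth muscle genes too. For the TEK agonist gene Angpt1 the log2 fold change was −0.05 (SE 0.21), and for Angpt2, the context-dependent antagonist, 0.24 (SE 0.22). In the list of receptor partners and ligand-processing genes, 5 of 6 were higher (median 0.28), with Nrp1, a co-receptor of KDR, at 0.31 (SE 0.16). Ptprb, the phosphatase that restrains TEK, had 0.33 (SE 0.17).

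Mural cells wrap capillaries and small vessels. Of 6 tested mural genes 5 were higher (median log2 fold change 0.62, 0 called), with Rgs5 at 27222 ± 8329 normalized counts in TDCA mice and 15361 ± 6741 in water mice (SD, n = 5 each, adjusted p = 0.448 in limma). For Pdgfrb, the receptor that recruits pericytes, TDCA over water was −0.10 (SE 0.19) on the log2 scale. The mural list holds genes that smooth muscle also makes and was lowest in water 1, like the muscle list.

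Markers of other cells were summed in each library, and 0 genes of the muscle and epithelial lists were called. The summed level of 10 smooth muscle genes ran from 160989 to 280433 normalized counts in TDCA libraries, against 72338 to 210513 in water libraries, and 10 of 10 of these genes had a higher mean in TDCA mice. Of 7 epithelial genes, 7 had a lower mean in TDCA mice, with summed levels of 212846 to 561684 in TDCA libraries and 459709 to 729910 in water libraries. These lists had a median log2 fold change of 0.68 for muscle and −0.28 for epithelium. Muscle genes were highest in TDCA 5 (mean centred log2 level 0.82) and lowest in water 1 (−1.15). At an unadjusted p under 0.05, 7 of the 10 muscle genes were higher in TDCA mice. Leaving out both water 1 and TDCA 5 was chosen after seeing the data and leaves fewer mice per group, which by itself raises p. Without them the median log2 fold change over the 10 endothelial genes was 0.28, against 0.27 with all libraries, and 9 of 10 were higher. There Tie1, Tek and Flt1 had unadjusted p of 0.0645, 0.0784 and 0.0924 in limma, so 0 of the 10 were under 0.05, and Prox1 was at −0.026. Macrophage markers, which bear on Lyve1, had 7 of 9 tested members higher and summed to 1784 to 3202 in TDCA libraries and 1652 to 2726 in water libraries. Enteroendocrine markers, which bear on Prox1, had 6 of 7 lower and summed to 1707 to 3590 in TDCA libraries and 2976 to 3620 in water libraries. Leukocyte markers, which bear on Pecam1, had 5 of 6 higher and summed to 1347 to 2675 in TDCA libraries and 966 to 4992 in water libraries. Platelet markers summed to 55.9 to 126 in TDCA libraries and 59.9 to 91.3 in water libraries, with Ppbp and Gp9 at 0 in at least 1 library. The part of these cells in the values of the 10 genes and the other vessel genes was not tested. Fibroblast genes had 7 of 7 higher, mesothelial genes 3 of 4, red cell genes 0 of 4 and fat cell genes 1 of 5.

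**Figure D5:**
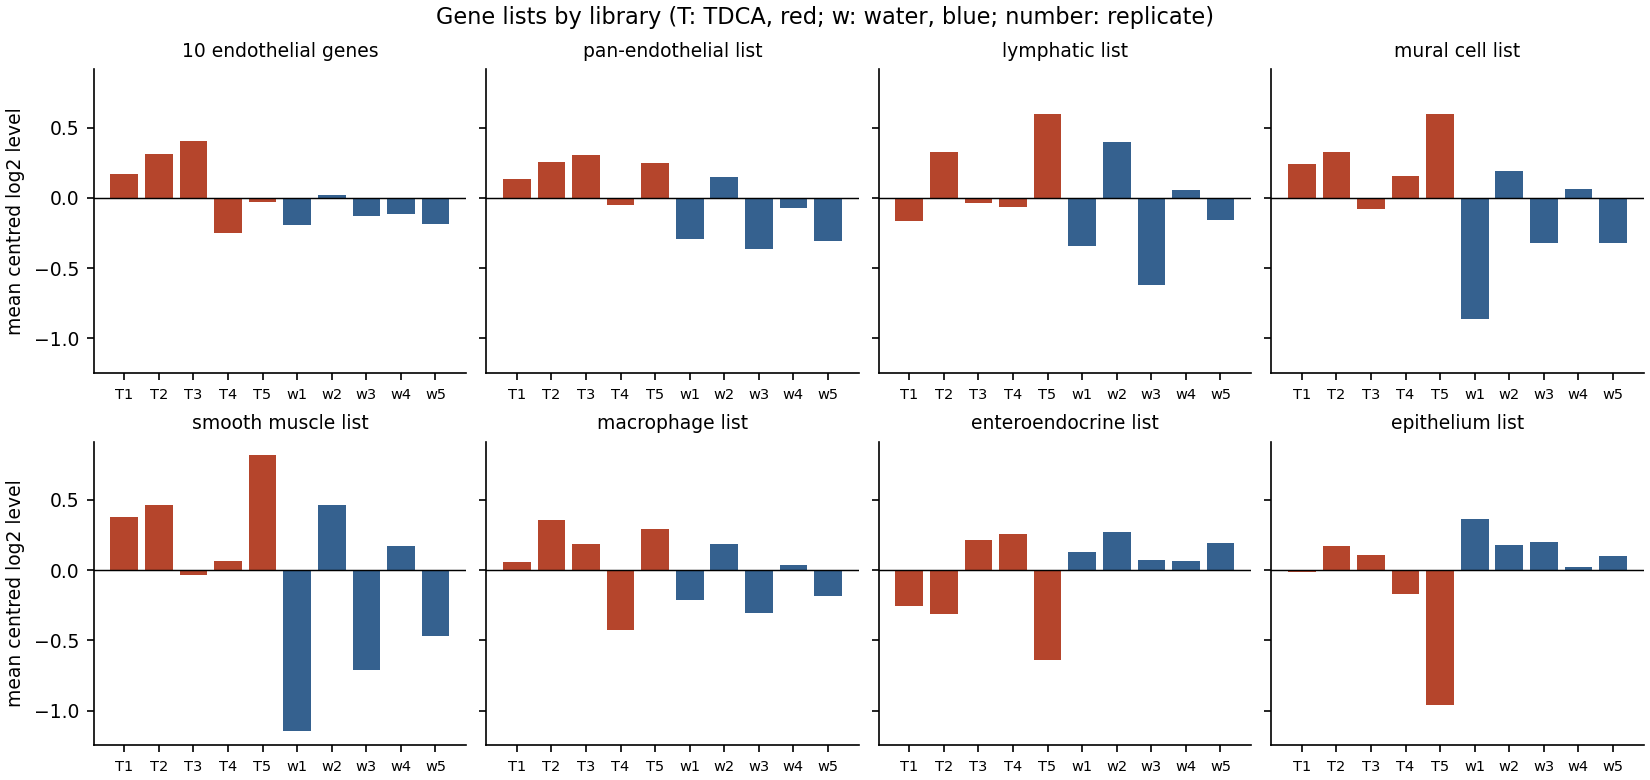
Mean centred log2 level (y axis) of 8 gene lists in each library, with TDCA bars in red (T1 to T5) left of water bars in blue (w1 to w5). The muscle and mural lists are lowest in water 1 and highest in TDCA 5, and the 10 endothelial genes run from −0.25 in TDCA 4 to 0.41 in TDCA 3.

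Among 12141 other named genes averaging 50 normalized counts or more, the 8 whose log2 level over the 10 libraries was most like the mean of the 10 endothelial genes were found by Pearson's r. They were chosen for this likeness, so r is given without a p. Ptprb came first with r of 0.96 (Spearman's rho 0.89, and r of 0.90 without TDCA 2 and TDCA 3, the libraries farthest from the median). It averaged 1044 ± 245 normalized counts in TDCA mice and 822 ± 133 in water mice (SD, n = 5 each). Then came Kctd10 (r of 0.93), Npnt (0.92), Fam102b (0.92), Sox5 (0.92), Adgrf5, an adhesion receptor gene of endothelium (0.92), Tcf4 (0.91) and Epas1, the hypoxia-inducible factor HIF2α (0.90). Without those libraries r was 0.93 for Sox5 and 0.92 for Npnt, both above Ptprb. It was 0.84 for Adgrf5, 0.83 for Kctd10 and for Fam102b, 0.69 for Tcf4 and 0.62 for Epas1. Spearman's rho was also above that of Ptprb for Sox5 (0.99), Npnt (0.93) and Adgrf5 (0.92). Of 48 vessel genes ranked in the same way, 7 were among the first 100 of the 12141 genes. Others stood far lower, such as Ephb4 at rank 8947 (r of −0.28) and Dll4 at rank 10697 (r of −0.49).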

How the data were processed

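RNA was measured in the distal ileum of 10 mice, 5 per group. Libraries were made from snap-frozen tissue with a RiboFree total RNA kit, per the labels' protocols. The submitters' processing notes name DESeq2 1.28.0, MultiQC 1.9 and build GRCm39. No source used here gives the aligner, the counter, the use of strand or the annotation.

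Normalized counts were deposited by the authors (a signal: reads divided by a size factor per library). In each library 100% of the values were whole multiples of the smallest value above 0, with a tolerance of 1e-04, which gave back whole reads. Per the file headers, the second deposited table gives a mean signal, a log2 fold change with standard error and raw and adjusted p-values. All columns of per-library values were mapped (0 unmapped).

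Groups were compared in R 4.3.3 with limma 3.58.1 (trend and robust options) after taking log2 of the normalized count plus 1. The p-values are two-sided and were adjusted by Benjamini-Hochberg across 17507 genes. Fold changes are on that scale and understate changes of low genes. EdgeR 4.0.16, DESeq2 1.42.0 and limma-voom on recovered reads were alternatives. Scripts were tested on simulated data. Single genes were permuted exactly over 252 labelings. Exon lengths came from GENCODE M21, an annotation of GRCm38. The only coordinates printed are those of 4 RefSeq promoters on GRCm38.p6.

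The 10 genes and the lists were chosen with earlier results of these data known. Vessel genes outside the 10 are named by role, whatever their values, with exceptions stated. Counting error does not cover PCR copies.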

Additional observations from a re-analysis of the deposited data

Results flagged for a closer look

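In groups of 5, a library whose gap to its nearest neighbour took more than 0.71 of the group's range was set apart, which chance does in about 1 of 20 groups. Among 70 groups (35 genes in both groups), 4 were set apart, and 0 of them concerned the 10 endothelial genes. Water 3 held 40.8 normalized counts of Angpt2, against 26.9 to 30.03 in the other water libraries. Vwf stood at 396 normalized counts in water 2, against 243 to 281 in the other water libraries. Ephb4 stood at 412 normalized counts in water 1, against 546 to 598 in the others. Water 3 also held 930 normalized counts of Pdgfrb, against 408 to 515 in the others.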

How the results depend on the processing

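Under 22 alternatives, 9 of the 10 endothelial genes kept their sign and 0 of the 10 were called. Lyve1 (log2 fold change −0.01, and −0.11 to 0.072 with single libraries left out) turned to 0.072 without TDCA 1, 0.049 without TDCA 4, 0.053 without water 1, 0.030 without water 2 and 0.041 without both water 1 and TDCA 5, an alternative chosen after seeing the data. The cause was not tested. Leaving out each library in turn moved the median log2 fold change over the 10 genes between 0.19 and 0.36, and the other planned settings moved it between 0.27 and 0.29. DESeq2 called 25 genes over the whole table where limma called 0. Leaving out TDCA 4 took the log2 fold change to 0.69 for Flt1, 0.56 for Tek, 0.57 for Tie1 and 0.40 for Kdr, and leaving out TDCA 3 or, for Kdr, TDCA 2 gave 0.37 for Flt1, 0.30 for Tek and 0.15 for Kdr. Quantile normalization left 2 of the 10 at an unadjusted p under 0.05. The smallest adjusted p over all alternatives was 0.22, for Tie1. Replicate numbers are serial, differ from the numbers in the sample titles and give no known pairing of the mice. Same-numbered libraries had correlations of deviations of −0.06, −0.14, 0.08, −0.15 and 0.17 across genes. These values cannot show whether mice shared a cage or a gavage day. The replicate block in limma gave 0 called genes, 0 of the 10 called and an adjusted p of 0.544 for Tie1. With the block 1 of the 10 (Tie1) was at an unadjusted p under 0.05, against 3 without it. With 93 to 1104 reads per gene and library, depth limits most of these genes less than the spread between 5 mice does. Tek in water mice is an exception. Its SD there was 7.97% of the mean, no wider than its counting error of 9.90% at 102 reads.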
